A study of Mus musculus with 4 samples.

Results

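The transcripts of 9 crystallin genes were followed in 4 RNA-seq libraries of cells sorted from the mouse retina. The genes were chosen by name: the alpha-crystallins Cryaa and Cryab, the acidic beta-crystallins Cryba1, Cryba2 and Cryba4, the basic beta-crystallins Crybb1, Crybb2 and Crybb3, and the gamma-crystallin Crygs. They make up 9 of the 56493 genes in the deposited count table, and 1 further name of the list, Crym-free, has no row there. Wild-type mice received an AAV2 vector in the vitreous, the optic nerve was crushed a month later, and cells labelled as retinal ganglion cells were purified by fluorescence-activated sorting. In 2 libraries the vector was AAV2-CrAT, meant to raise carnitine acetyltransferase, and in the other 2 it was AAV2-MCS, which the labels do not spell out. All 4 libraries carry the label optic nerve crush, and their titles share the term NCd8, which the labels do not explain. The labels do not give the age of the mice, the promoter in the vector or whether animals were pooled, and do not tie the replicates to separate animals, so a p-value here measures the spread between these libraries, which may be technical.

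Crystallins were named for the eye lens, where they are packed at high concentration and keep the tissue transparent. Alpha-crystallins are small heat shock proteins that bind unfolding proteins and hold them in solution, and the alpha-B chain is made in many tissues, glia and muscle among them. Beta- and gamma-crystallins share a fold of Greek key motifs and are structural proteins of the lens fibre cell. Members of all 3 families have been described in the retina, where their levels change after light damage and nerve injury, and crystallin beta-b2 has been linked to axon growth of ganglion cells.

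The libraries held 24494253 to 27097438 counts each. CPM values are counts scaled to library depth and between libraries by TMM, and 3 counts correspond to 0.109 to 0.126 CPM. Where 2 values are given for a group, replicate 1 comes first. Intervals and floors reflect counting error alone, because reads copied by amplification carry no molecular identifiers here and need not be separate molecules. Ganglion cell transcripts were few for a ganglion cell sort: 10 markers summed to 82.9 and 193 CPM in the CrAT pair and to 59.0 and 139 CPM in the MCS pair, against 22430 to 42290 CPM for 8 rod markers. In such a mixture, fewer cells of a type and less RNA per cell cannot be told apart.

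Of the 9 genes, Cryab was abundant, Crybb3 was present at a few CPM, and the other 7 stayed under 1 CPM in all 4 libraries. At least 10 counts in every library were found for Cryab and Crybb3, a count in every library for 4 members (these and Crybb1 and Crybb2), and 5 members (Cryaa, Cryba1, Cryba2, Cryba4 and Crygs) had 0 counts in at least 1 library. Between genes, levels were compared per length with the deposited FPKM (fragments scaled to exon length and to library depth). The order by median FPKM was Cryab at 213 (range 119 to 234), Crybb3 at 1.77 (0.947 to 2.37), Crybb1 at 0.375 (0.288 to 0.487), Cryba2 at 0.327 (0 to 0.749), Crybb2 at 0.285 (0.101 to 0.495), Crygs at 0.163 (0 to 0.642), Cryba1 at 0.108 (0 to 0.164), Cryba4 at 0.0244 (0 to 0.313) and Cryaa at 0.0178 (0 to 0.0812). The ranges over the 4 libraries separated Cryab from Crybb3 and Crybb3 from the 7 below it, while each neighbouring pair further down overlapped. The FPKM of Cryab was 89.9 to 158 times that of Crybb3 within a library.

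**Figure D1:**
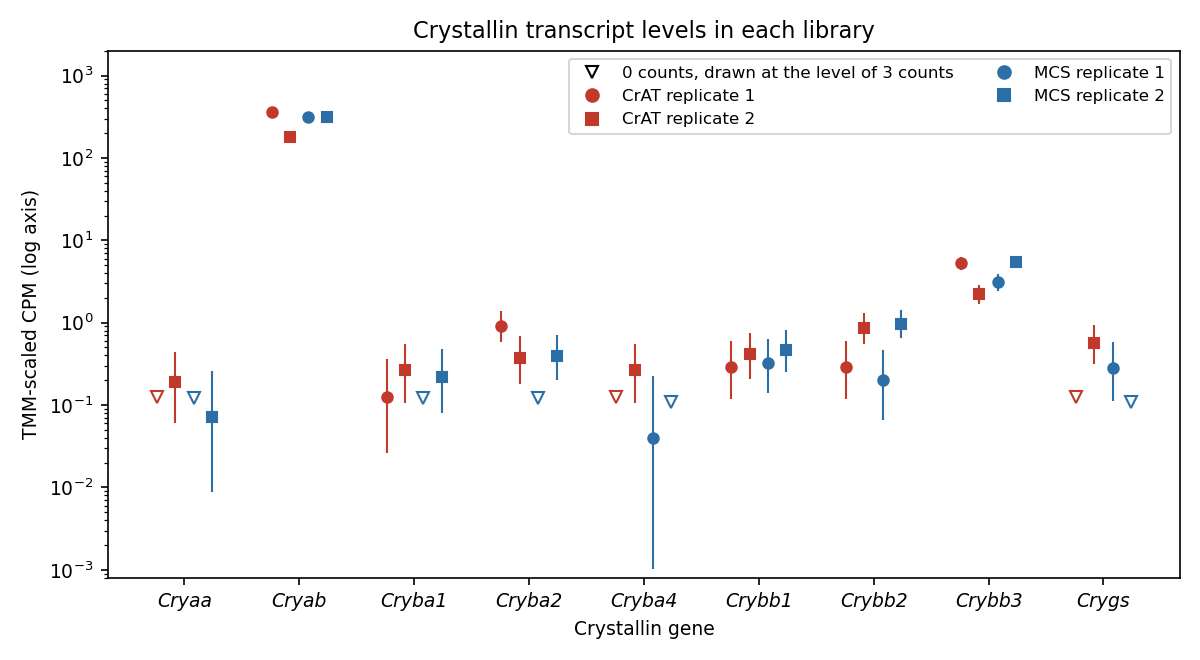
TMM-scaled CPM (log axis) of the 9 crystallin genes in the 2 CrAT (red) and 2 MCS (blue) libraries, with exact 95% Poisson intervals for counting error; open triangles mark 0 counts, drawn at the level of 3 counts. Cryab sits between 177.7 and 356.9 CPM and Crybb3 between 2.23 and 5.43 CPM, and every other point lies below 1 CPM.

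No difference between CrAT and MCS beyond the spread between replicates was detected for the members that could be tested. With 2 libraries a group this does not show that their levels were equal, as the standard errors of their log2 fold changes ran from 0.39 for Cryab to 1.44 for Cryba2. Of the 9 genes, 5 had enough counts to be tested (Cryab, Cryba2, Crybb1, Crybb2 and Crybb3), and 0 passed an adjusted p of 0.05 in edgeR's quasi-likelihood test, where 0.0% of all 19638 genes tested passed. At an unadjusted p under 0.05 there were 0 of the 5, against 4.15% of all genes, and DESeq2 also had 0 of the 5 at an unadjusted p under 0.05 (4.57% of all genes) and 0 at an adjusted p of 0.05 (0.275%). In 0 of the 5 tested members did both CrAT libraries lie on the same side of both MCS libraries, which was so for 31.6% of all genes tested. It was also so for 0 of all 9 members. Of the untested members, Cryaa, Cryba4 and Crygs had 0 counts in a library of each group and could not separate. Of the tested members 1 had a positive and 4 a negative log2 fold change, CrAT over MCS, with a median of -0.16 beside 0.01 over all genes tested. This median changed sign when CrAT replicate 1 (0.063), CrAT replicate 2 (0.22) or MCS replicate 2 (0.27) was left out. With no filter on low counts, where all 9 members enter, it was 0.81.

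Cryab encodes the alpha-B-crystallin chain. The count table places it (ENSMUSG00000032060) on chromosome 9 from 50662625 to 50667936, plus strand, with 1479 bases of exons. The deposited coordinates carry no build name and are not those of GRCm38. Cryab had 8520 and 4712 counts in the CrAT pair and 7723 and 8550 counts in the MCS pair, or 356.9 and 177.7 CPM against 310.6 and 309.6 CPM. CrAT replicate 2 was low, the MCS pair nearly coincided, and CrAT replicate 1 was the highest, so that the MCS values fell inside the CrAT range. The group levels were 267 ± 127 CPM with CrAT and 310 ± 0.668 CPM with MCS (SD, n = 2 each), and the log2 fold change was -0.21 (SE 0.39; edgeR quasi-likelihood test, adjusted p = 1). The value was 0.22 with CrAT replicate 2 left out and -0.80 with CrAT replicate 1 left out. CrAT replicate 2 held 0.498 of the Cryab level of CrAT replicate 1 (95% exact interval 0.480 to 0.516), whereas the same ratio in MCS was 0.997 (0.967 to 1.03). By FPKM, Cryab ranked 181 and 477 among all genes with CrAT and 171 and 228 with MCS.

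On the opposite strand, exons of Hspb2, a small heat shock protein gene of muscle that starts next to Cryab, share 252 bases with those of Cryab. The library kit does not mark the strand, so reads in the shared stretch cannot be told apart. Hspb2 had 8 and 24 counts in CrAT and 34 and 47 in MCS, few beside the 4712 or more of Cryab. The CrAT libraries were both below the MCS libraries for Hspb2, which held for 16.6% of all genes tested, with a log2 fold change of -1.30 (SE 0.74; edgeR quasi-likelihood test, adjusted p = 1).

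Other genes with the small heat shock protein name Hspb were read from a list of 8, of which 5 were tested and 0 passed (edgeR quasi-likelihood test, adjusted p of 0.05). Of these 3 had a positive and 2 a negative log2 fold change, with a median of 0.28. That median was the value of Hspb11, which was listed by its name alone. The others lay on both sides of 0, at 1.35 for Hspb8, 0.31 for Hspb6, -0.42 for Hspb1 and -1.30 for Hspb2. Hspb6, which forms mixed complexes with alpha-B-crystallin, came nearest to Cryab in level, at 170 and 85.1 FPKM in CrAT and 111 and 103 FPKM in MCS. Cryab exceeded it by 1.38 and 1.40 times in the CrAT replicates and by 1.91 and 2.08 times in the MCS replicates. Hspb1, the chaperone HSP25, had 22.5 and 11.1 FPKM in CrAT and 18.2 and 28.6 FPKM in MCS. Both were lowest in CrAT replicate 2, as Cryab was. Hspb8, a chaperone that works with the co-chaperone BAG3, went the other way in the same library, with 41 and 246 counts in CrAT and 29 and 87 in MCS.

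The library with the least Cryab also stood low in glial and photoreceptor transcripts. CrAT replicate 2 was the lowest of the 4 for 21.8% of all genes tested. Summed Mueller glia markers, 10 genes, were 15160 and 12390 CPM in the CrAT pair and 22480 and 20230 CPM in the MCS pair, with the CrAT pair below the MCS pair for 7 of the 10 (16.6% of all genes tested). Summed rod markers were 42290 and 22430 CPM against 41310 and 24300 CPM. Summed amacrine markers, 8 genes, were highest in that library, at 976 and 2670 CPM for CrAT against 1143 and 1764 CPM for MCS. Unlike the Mueller sum, Cryab in CrAT replicate 1 was above both MCS libraries. Unlike the rod sum, it was nearly equal in the MCS replicates. The part of these cell types in the Cryab values was not tested.

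**Figure D2:**
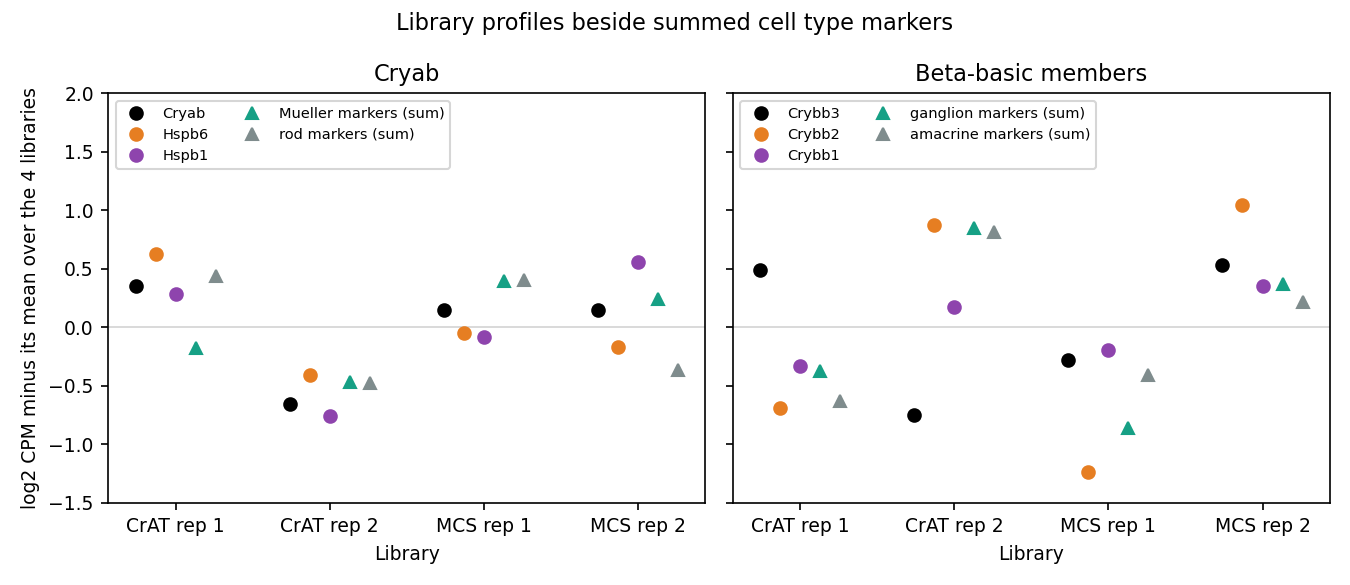
log2 CPM of each gene or summed marker list minus its own mean over the 4 libraries; circles are genes, triangles are sums of marker lists. On the left Cryab, Hspb6 and Hspb1 are lowest in CrAT replicate 2. On the right Crybb2 and, within counting error, Crybb1 are higher in both libraries numbered 2 while Crybb3 is high in CrAT replicate 1 and MCS replicate 2.

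Cryaa, the alpha-A chain and the partner of alpha-B in the lens (ENSMUSG00000024041, chromosome 17, 31896781 to 31900707, plus strand), was close to absent. It had 0 and 5 counts in the CrAT pair and 0 and 2 in the MCS pair. By the exact 95% Poisson interval, a count of 0 allows up to 0.1545 CPM in the first CrAT library and up to 0.148 CPM in the first MCS library. Its counts were too few to pass the filter. With no filter the fitted log2 fold change was 1.26 (SE 2.34; edgeR quasi-likelihood test, adjusted p = 0.998).

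The basic beta-crystallins lie in a cluster on chromosome 5, and the RefSeq promoters of 3 genes there are shown because these genes span the levels and count patterns seen there: Crybb3 is the most abundant beta member, Crybb2 its next neighbour with another pattern, and Cryba4 a gene with few counts, most of them in CrAT replicate 2. Each run goes from 250 bases before to 50 after the annotated start, 5′ to 3′, on the minus strand of GRCm38.p6: chr5:113081535-113081834 for Crybb3, chr5:113070068-113070367 for Crybb2 and chr5:112252469-112252768 for Cryba4. Capitals mark TGCTGA, which is an arm of the palindrome that MAF factors of the lens recognise, or its reverse complement.
Crybb3: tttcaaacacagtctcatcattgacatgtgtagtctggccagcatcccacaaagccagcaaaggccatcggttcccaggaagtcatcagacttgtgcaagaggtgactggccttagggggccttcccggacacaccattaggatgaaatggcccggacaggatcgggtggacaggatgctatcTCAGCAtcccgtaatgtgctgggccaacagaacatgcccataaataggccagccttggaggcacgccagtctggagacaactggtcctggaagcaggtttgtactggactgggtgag
Crybb2: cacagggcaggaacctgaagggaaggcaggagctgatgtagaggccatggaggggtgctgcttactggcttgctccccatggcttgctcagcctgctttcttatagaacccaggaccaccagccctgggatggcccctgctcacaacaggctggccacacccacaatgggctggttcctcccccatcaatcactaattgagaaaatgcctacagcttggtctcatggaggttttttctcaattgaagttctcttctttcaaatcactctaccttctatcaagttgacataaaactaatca
Cryba4: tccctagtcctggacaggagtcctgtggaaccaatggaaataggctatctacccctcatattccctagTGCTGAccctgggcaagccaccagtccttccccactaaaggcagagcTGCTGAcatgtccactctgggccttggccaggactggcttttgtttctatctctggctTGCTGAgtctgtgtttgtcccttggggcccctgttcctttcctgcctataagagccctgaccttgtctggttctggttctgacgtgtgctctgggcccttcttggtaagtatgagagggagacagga
The Cryba4 window holds TGCTGA 3 times on the plus strand of the window, the Crybb3 window once on the other strand, and the Crybb2 window not at all. RefSeq windows were matched for 8 of the 9 members, all but Cryab, and 7 of the 8 hold TGCTGA on either strand, where 19.5% of all 32851 promoter windows do. The heat shock element core GAANNTTC, searched on both strands (it is its own reverse complement), was in 0 of the 8 and in 7.86% of all windows. The TATA sequence TATAAA, searched on both strands and added after the windows were seen, was in 4 of the 8 (Cryba1, Cryba2, Crybb1 and Crygs) and in 13.6% of all windows. The 3 motifs do not overlap in these windows. A match describes the letters only, and 2 of the 3 motifs were picked for what is known of crystallin genes.

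Crybb3 (ENSMUSG00000029352, chromosome 5, 113223705 to 113229450, minus strand, 2333 bases of exons), for the beta-B3 chain, had 126 and 59 counts in the CrAT pair and 77 and 150 in the MCS pair. These are 5.28 and 2.23 CPM against 3.10 and 5.43 CPM. Each group held a high and a low library, and the groups overlapped. The levels were 3.75 ± 2.16 CPM with CrAT and 4.26 ± 1.65 CPM with MCS (SD, n = 2 each), and the log2 fold change was -0.19 (SE 0.60; edgeR quasi-likelihood test, adjusted p = 1). The sign turned when CrAT replicate 2 (0.32) or MCS replicate 2 (0.27) was left out, and leaving out CrAT replicate 1 gave -0.94. The spread within a group was larger than counting error, as replicate 2 over replicate 1 was 0.422 in CrAT (95% exact interval 0.304 to 0.579) and 1.75 in MCS (1.32 to 2.34).

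Crybb2 (ENSMUSG00000042240, 113206124 to 113217983, minus strand) lies 5721 bases from Crybb3 and encodes the beta-B2 chain, the most plentiful beta-crystallin of the mature lens. It had 7 and 23 counts in the CrAT pair and 5 and 27 in the MCS pair. Both libraries numbered 2 were high and both numbered 1 were low. The ratio of replicate 2 to replicate 1 was 2.96 in CrAT (95% exact interval 1.23 to 8.16) and 4.86 in MCS (1.85 to 16.2). Means were 0.580 ± 0.406 CPM with CrAT and 0.589 ± 0.549 CPM with MCS (SD, n = 2 each), and the log2 fold change was -0.02 (SE 1.04; edgeR quasi-likelihood test, adjusted p = 1). Leaving out MCS replicate 2 gave 1.51, and leaving out CrAT replicate 2 gave -0.99. The beta-B1 gene Crybb1 (ENSMUSG00000029343, 112403681 to 112417451, plus strand) had 7 and 11 counts in CrAT and 8 and 13 in MCS, with a log2 fold change of -0.16 (SE 0.87; edgeR quasi-likelihood test, adjusted p = 1). For both genes, and so for 2 of the 5 members tested, the 2 libraries numbered 2 lay above the 2 numbered 1, which held for 24.1% of all genes tested. For Crybb1 this order was within counting error. Its ratio of replicate 2 to replicate 1 was 1.415 in CrAT (95% exact interval 0.501 to 4.3) and 1.46 in MCS (0.562 to 4.07). Ganglion and amacrine marker sums were higher in the same 2 libraries, and their part in the Crybb2 counts was not tested.

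Among the acidic beta-crystallins, Cryba2 (ENSMUSG00000006546, chromosome 1, 74929093 to 74932302, minus strand) had the largest fold change of the members tested, and its groups still overlapped. It had 22 and 10 counts in the CrAT pair and 0 and 11 in the MCS pair. CrAT replicate 1 was high and MCS replicate 1 empty, and the other 2 libraries were alike at 0.377 and 0.398 CPM. The 0 counts of MCS replicate 1 allow up to 0.148 CPM by the exact 95% Poisson interval. Means were 0.649 ± 0.385 CPM with CrAT and 0.199 ± 0.282 CPM with MCS (SD, n = 2 each), and the log2 fold change was 1.66 (SE 1.44; edgeR quasi-likelihood test, adjusted p = 1). Leaving out MCS replicate 1 gave 0.69, leaving out CrAT replicate 1 gave 0.88, and leaving out CrAT replicate 2 gave 2.17. Without MCS replicate 2 the MCS library left has 0 counts, and the fitted value of 7.03 does not measure the size of a difference.

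Cryba1, whose transcript is translated into the beta-A3 and beta-A1 chains (ENSMUSG00000000724, chromosome 11, 77609441 to 77616109, minus strand), had 3 and 7 counts in CrAT and 0 and 6 in MCS. Cryba4, for beta-A4 (ENSMUSG00000066975, chromosome 5, 112394359 to 112400384, minus strand), lies head to head with Crybb1 across a gap of 3296 bases and had 0 and 7 counts in CrAT and 1 and 0 in MCS. Neither had enough counts to be tested. Crybb1 had counts in all 4 libraries, and with so few counts of Cryba4 the patterns of the head-to-head pair could not be compared at this depth.

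Crygs encodes gamma-S-crystallin, a gamma chain of the outer lens (ENSMUSG00000033501, chromosome 16, 22623953 to 22630327, minus strand, 875 bases of exons). It had 0 and 15 counts in the CrAT pair and 7 and 0 in the MCS pair. In each group 1 library was empty and the other was not, and the empty ones bore different numbers. Within each group this difference exceeded counting error. The 95% exact interval of replicate 2 over replicate 1 began at 3.23 in CrAT and ended at 0.625 in MCS. By the exact 95% Poisson interval, the counts of 0 allow up to 0.1545 CPM for CrAT replicate 1 and up to 0.134 CPM for MCS replicate 2. Together the 7 beta and gamma members had 165 and 132 counts in CrAT and 98 and 207 in MCS, or 6.91 and 4.98 CPM against 3.94 and 7.50 CPM. Crybb3 made up 76.4% of this sum in CrAT replicate 1, 78.6% and 72.5% in MCS replicates 1 and 2, and 44.7% in CrAT replicate 2, the library with the highest counts of Crygs, Cryba1, Cryba4 and Cryaa. For each of these 4 genes the 95% exact interval of the ratio to the next highest library included 1. Cryba1, for example, had 7 counts there against 6 in MCS replicate 2.

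A library was called a spike for a gene where its CPM was at least 3 times that of the next highest library. This held for 1 of the 9 members, Cryba4 in CrAT replicate 2, with 7 counts against 1 in MCS replicate 1. The ratio of 6.57 has a 95% exact interval of 0.843 to 296, so these 2 libraries were not separated beyond counting error. They were picked by rank, so the interval does not decide whether CrAT replicate 2 exceeded the rest. Over CrAT replicate 1, which had 0 counts, the exact interval of its ratio began at 1.30. Among all 31851 genes with a count the same rule was met by 20.3%, and among the 19638 genes tested by 1.19%. Genes with counts in a single library meet the rule at any count, and they enter the shares over all genes with a count. At a ratio of at least 2, 4 of the 9 members met it (27.3% of all genes with a count): Cryba4, Cryaa at 2.60 (0.426 to 27.3), Crygs at 2.01 (0.771 to 5.83) and Cryba2 in CrAT replicate 1 at 2.31 (1.07 to 5.28). Cryab and Crybb3 had no such library, at ratios of 1.15 and 1.03.

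**Figure D3:**
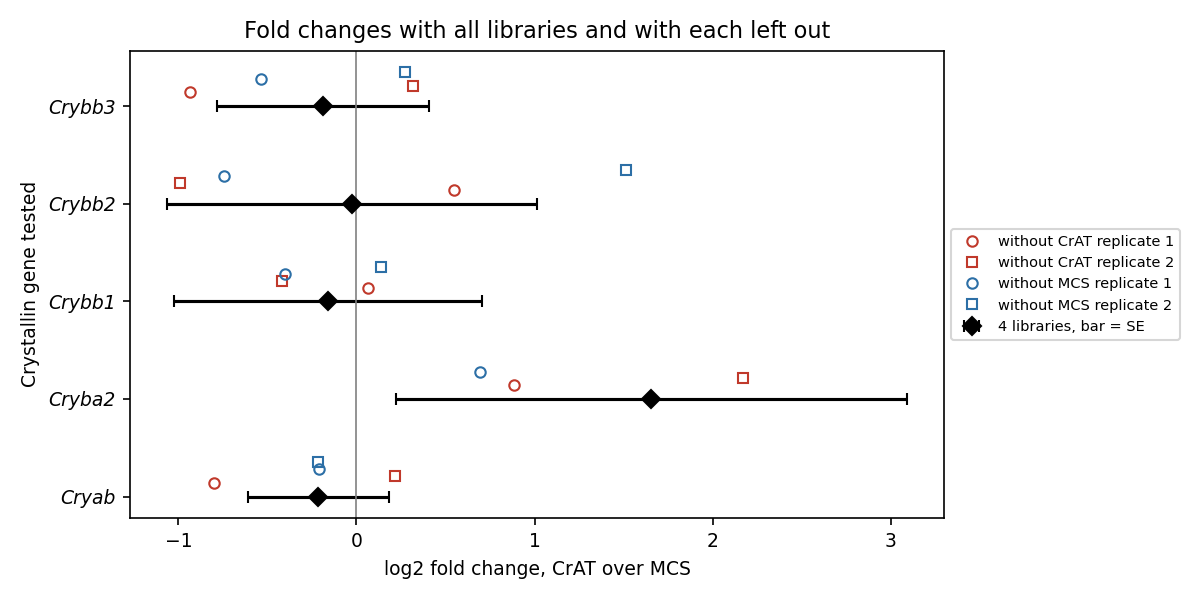
log2 fold change, CrAT over MCS, of the 5 members tested (diamonds, bars are standard errors) with the value after leaving out each library (open symbols). All bars but that of Cryba2 cross 0, and each gene except Cryba2 has values on both sides of 0; Cryba2 without MCS replicate 2 is not drawn because the MCS library left has 0 counts.

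Lens fibre transcripts were checked beside the crystallins, since lens tissue can be carried along when a retina is dissected. Of 14 lens fibre markers 6 had 0 counts in all 4 libraries, among them Lim2, Gja3, Dnase2b and Lgsn, and Mip, the main water channel of lens fibres, had 0 to 1 count per library. Of all 56493 genes in the count table only 31851 had a count in some library, so 0 counts in all 4 were common. The list summed to 2.51 and 4.79 CPM for CrAT and 3.26 and 7.68 CPM for MCS. Without Hsf4, a heat shock factor which other tissues also express, the sum was 1.55 and 2.41 CPM against 2.65 and 4.06 CPM. The largest part of the rest came from the beaded filament gene Bfsp2, at 9 and 32 counts in CrAT and 18 and 44 in MCS, and from the galectin-related Grifin, at 15 and 17 against 23 and 30 counts. Of the list 4 genes were tested and 0 passed (edgeR quasi-likelihood test, adjusted p of 0.05).

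The other alpha-, beta- and gamma-type crystallin genes of the genome also had few counts, apart from Crybg3. Of 10 such genes 3 (Cryge, Crygc and Crygf) had 0 counts in every library, 4 reached 10 counts in some library, and 2 were tested with 0 called (edgeR quasi-likelihood test, adjusted p of 0.05). A count in some library was found for 31851 of all 56493 genes. Crybg3, a large non-lens protein with beta/gamma-crystallin repeats, had 735 and 571 counts in CrAT and 566 and 545 in MCS, a log2 fold change of 0.30 (SE 0.35). Crybg1 had 6 and 20 against 4 and 37 counts. Cryga reached 13 counts in MCS replicate 2 and Crybg2 19 counts in MCS replicate 1. The enzyme-related genes that carry the name crystallin are unrelated in sequence and were all expressed. Of these 5 all were tested and 0 passed, with 4 log2 fold changes above 0 and 1 below. Crym, the ketimine reductase that binds thyroid hormone, stood at 206 and 174 FPKM in CrAT and 246 and 146 FPKM in MCS, a range that overlapped that of Cryab. Cryz, a quinone reductase, had 8.09 and 11.0 FPKM against 8.31 and 8.53 FPKM.

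**Figure D4:**
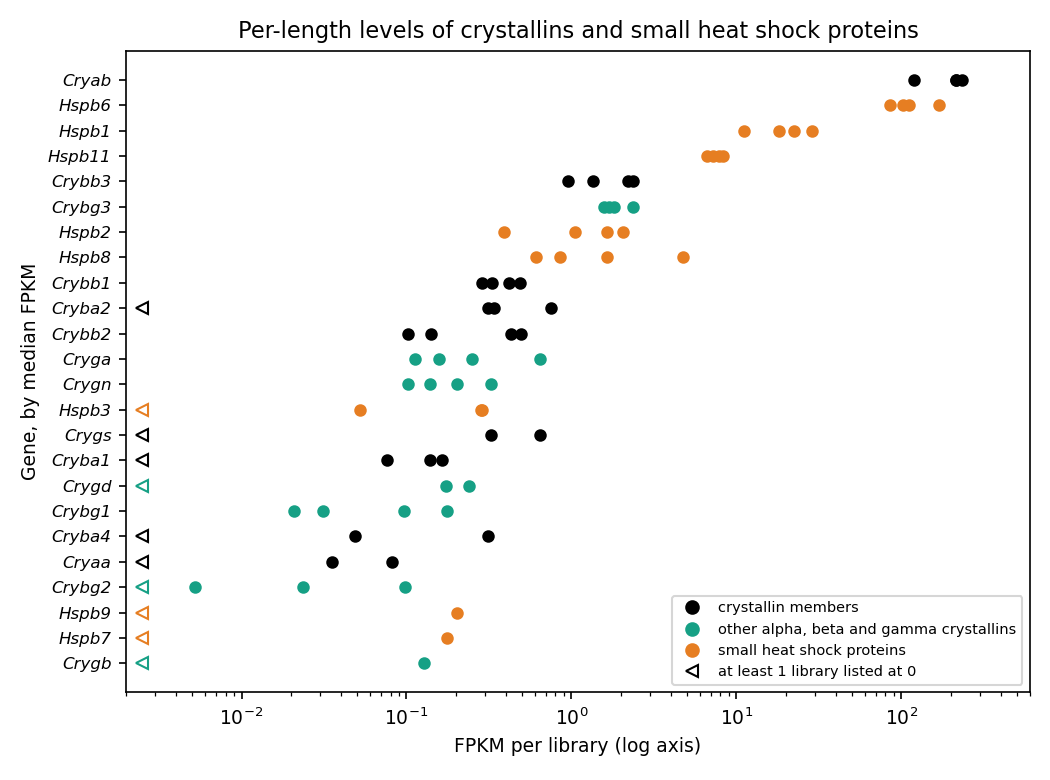
FPKM (log axis) in each of the 4 libraries for the crystallins (black), other alpha-, beta- and gamma-type crystallins (green) and genes named as small heat shock proteins (orange) that had a count, in order of the median; open triangles mark genes listed at 0 in at least 1 library. Cryab and Hspb6 lie at 85.1 FPKM and above, and the points of every beta- and gamma-type gene lie below 3 FPKM.

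Transcription factors that act on crystallin genes in the lens were present in part. Of 24 on the list 20 were tested and 0 passed in edgeR's quasi-likelihood test, with 7 log2 fold changes above 0 and 13 below, a median of -0.33 beside 0.01 over all genes tested. Foxe3 and Pitx3, needed for the lens vesicle and its fibres, had 0 counts in all 4 libraries, and Sox1 had 1 count in all. Pax6, which the retina uses as well, had 20.7 and 38.0 FPKM in CrAT and 27.1 and 23.6 FPKM in MCS. The CrAT pair lay below the MCS pair for 8 of the 24 genes and above it for 1. Lying below held for 16.6% of all genes tested. Sox2 was among the 8, with 124 and 55 counts in CrAT and 248 and 231 in MCS. Its log2 fold change was -1.34 (SE 0.55), with an adjusted p of 1 in edgeR. Sox2 is known in Mueller glia, whose marker sum, given above, was lower in the same 2 libraries, and its part was not tested.

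The genes whose profile over the 4 libraries was closest to the summed beta and gamma members were Tmem116, Jak2, Acsbg1, Hspa1l and Myg1. Likeness was the Euclidean distance between log2 CPM profiles centred on their means, and it was 0.0582 for Tmem116, the closest, and 0.107 for Myg1. Tmem116, at 17.5 and 13.2 CPM for CrAT and 10.3 and 19.1 CPM for MCS, followed the order of the sum. A prior count of 2, which damps the log of low values, was used for single genes but not for the sum. With 4 libraries looser matches are common, and 1006 of 14713 genes lay within a distance of 0.5. That limit is wider than the distances of the 5 genes named, and matches as close as theirs were not counted.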

How the data were processed

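RNA was read in 4 libraries of sorted retinal cells, 2 CrAT and 2 MCS, grouped and numbered by their titles. Per the labels' protocols, cDNA was made from total RNA by a SMART-seq kit for low input; such kits do not mark the strand. Per the submitters' processing notes, STAR 2.7.2b was used, with GRCm38.p6 and mm10 as builds. How reads were counted is not given in the labels. The authors deposited estimated counts per gene, rounded to whole numbers, and FPKM values. FPKM times exon length rebuilt the deposited counts within 0.5, and 43.6% to 44.9% of values above 0 were not whole within 0.02. Whole counts had been assumed in the design, and estimated counts take the same test after rounding. Start and end matched a GRCm38 annotation for 1402 of the 51898 identifiers found in both (0 of the 9 crystallins), so no coordinates were mixed. In all 4 columns of other samples were not used.

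Genes were kept by filterByExpr (19638) and scaled by TMM. Groups were compared by the quasi-likelihood F test of edgeR 4.0.16 in R 4.3.3 with group as the only term and 2 residual degrees of freedom, two-sided, adjusted by Benjamini-Hochberg over all genes, threshold 0.05, tested on simulated data. An exact permutation test of 2 libraries against 2 cannot pass that threshold and was not used. DESeq2 1.42.0, RLE scaling, library size only, no filter, the replicate number as a block and leaving out each library were alternatives. Between the replicates of a group chi-square over degrees of freedom was 85.5 in CrAT and 146 in MCS, above sampling noise, and each library was counted as 1 sample. The members, gene lists and marker lists were chosen with earlier results of these data known. Genes named were all members, list genes with at least 10 counts in some library (up to 4 a list by smallest p), and the 5 most alike in profile. List genes named for 0 counts, and others beyond the 4, were chosen after their values were seen. A list gene that meets this rule is not reported here. Promoter windows are from RefSeq.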

Additional observations from a re-analysis of the deposited data

How the results depend on the processing

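No crystallin member passed an adjusted p of 0.05 under any alternative run (other scalings, no filter, the replicate block, DESeq2 and each library left out). Over all genes 0 passed as reported, 54 in DESeq2 and 2 with no low-count filter. Of 45 alternative log2 fold changes of the 5 members tested, 37 kept their direction and 8 turned. The median over the members was -0.16, and from -0.40 to 0.27 with a library left out. It was 0.81 with no filter, where the 4 members with few counts enter. With a library left out the log2 fold change ran from -0.80 to 0.22 for Cryab, from -0.42 to 0.14 for Crybb1, from -0.99 to 1.51 for Crybb2 and from -0.94 to 0.32 for Crybb3. For Cryba2 it ran from 0.69 to 2.17, apart from 7.03 without MCS replicate 2, where the MCS library left has 0 counts. Leaving out MCS replicate 2 turned Crybb1 (0.14), Crybb2 (1.51) and Crybb3 (0.27). Leaving out CrAT replicate 1 turned Crybb1 (0.063) and Crybb2 (0.55), and leaving out CrAT replicate 2 turned Cryab (0.22) and Crybb3 (0.32). Without 1 library its group has a single sample, which is assumed to vary like the other group. The number of members with a single-library spike was 1 as reported and 4 at a ratio of at least 2. The replicate block, with no gene and no member past the threshold, turned Crybb2 to 0.13. The labels give no pairing, and the replicate differences of the 2 groups correlated over 19638 genes with r = 0.39. The 4 untested members had too few counts to pass the filter, so CrAT and MCS were compared by test for them only with no filter. With counts this low a difference between the groups could go undetected. Why values turned was not tested.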
